A study of Rattus norvegicus with 8 samples.

Results

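Cytochrome P450 genes carry symbols that begin with Cyp. They were taken as the spots other than control spots whose gene name in the array files, without its suffix, starts with Cyp and a digit, with Cyp51 left out. The rule found 72 of the 15207 spots, which hold 64 distinct probe sequences of 60 bases and stand for 62 genes of 12552. Of the 72 spots 60 were named through a RefSeq accession, 11 through a symbol or synonym, and 1 (Cyp2c65) kept the name in the file. For 22 spots the current symbol differs from the file's, as for Cyp2d4, listed as Cyp2d22, and for Cyp2j3, listed as Cyp2j9.

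Cytochrome P450 enzymes are haem proteins that insert an oxygen atom into their substrates with electrons passed on by a redox partner, P450 reductase (Por) in the endoplasmic reticulum or ferredoxin (Fdx1) and its reductase (Fdxr) in mitochondria. Families 1 to 3 are best known for clearing drugs in the liver, among them fluoxetine, which is a substrate and an inhibitor of CYP2D enzymes. Other families make or remove signalling lipids: in brain, Cyp46a1 of neurons turns cholesterol into 24-hydroxycholesterol, which can leave through the blood-brain barrier, Cyp7b1 hydroxylates oxysterols and neurosteroids, Cyp26 enzymes clear retinoic acid, and Cyp2j and Cyp4 enzymes oxidise arachidonic acid and other fatty acids.

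RNA of whole hippocampi of 2-month-old rats was hybridised to single-colour Agilent arrays, 4 of a group called control and 4 of a group called PNFLX. As pups, the PNFLX rats had received fluoxetine, an antidepressant that blocks serotonin uptake, in a dose of 10 mg/kg, and the control rats its vehicle, 5% sucrose, from postnatal day 2 to 21. The sample descriptions give other last days, between 21 and 28, in step with the sample order; the protocol was followed here. The labels give neither strain nor sex, and do not say that each sample is 1 animal, so p-values measure the spread between these samples, which may be technical. In bulk tissue, fewer cells of a type and less RNA per cell cannot be told apart. All 8 arrays lay on 1 slide, and each group filled 1 row of the slide, so the effect of that row cannot be told apart from that of the treatment. Of 9 markers of hippocampal neurons on the array, 8 were well above background on all 8 arrays. Their summed signal, relative to each array's 75th percentile, was 90.4 to 120.0 on the controls and 74.7 to 89.0 on PNFLX, without overlap, with 4 of the 9 higher and 5 lower. All 7 oligodendrocyte markers, all 7 measured choroid plexus markers and 6 of 8 microglia markers were lower in PNFLX. All 5 measured blood markers and 9 of 11 meningeal and fibroblast markers were higher. Those of astrocytes and of endothelial cells split into 3 higher and 4 lower each. No marker of these lists or of neurons passed the threshold, and their part in the results below was not tested. Of 13 liver markers 6 were well above background on at least 4 arrays and 2, Alb and Fgg, on none, and the liver sum was 59.3 on control 4 and 24.1 to 31.0 on the other arrays (Ttr is in this list and in that of the choroid plexus). Of 5 adrenal cortex markers 1 was so on at least 4 arrays and Mc2r, Cyp11a1 and Cyp21a1 on none. The summed signal of 11 choroid plexus markers was 46.5 on control 4 and 3.31 to 5.79 on the other arrays, and that of 11 meningeal and fibroblast markers was 33.3 to 51.7 on 7 arrays and 2.54 times their median on PNFLX 1.

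The probes below belong to the spots on which the comparison turns or to the pair of member probes that are most alike. Positions are those of the array files, on rat assembly rn4; no exon annotation was used, so whether a probe lies in coding or untranslated sequence was not read here. For Cyp2b2, Cyp27b1 and Cyp26b1 the first 30 bases of the probe are printed, for the others all 60. The Cyp2b2 probe lies at chr1:81437386-81437445 on the plus strand.
Cyp2b2: ctcctaatagcccacgtccccacttatcag
The Cyp27b1 probe, spotted at 2 places, has no position in the files.
Cyp27b1: taggaaagtgaatctctccttgccttacag
The Cyp26b1 probe lies at chr4:118979795-118979854 on the minus strand.
Cyp26b1: ttcattgtggtagcattaatgggtgatgta
The Cyp46a1 probe is listed at chr6:132728608-132729463 on the plus strand, a stretch of 856 bases for a probe of 60.
Cyp46a1: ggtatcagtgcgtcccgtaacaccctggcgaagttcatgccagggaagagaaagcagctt
The Cyp17a1 probe lies at chr1:252228687-252228746 on the minus strand.
Cyp17a1: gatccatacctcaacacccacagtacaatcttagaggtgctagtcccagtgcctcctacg
The probes of Cyp2a1 and Cyp2a2, steroid hydroxylases of rat liver that are near copies of each other, are the most alike of the 2016 pairs of member probes. They match at 51 of 60 bases, and the 9 that differ are in capitals.
Cyp2a1: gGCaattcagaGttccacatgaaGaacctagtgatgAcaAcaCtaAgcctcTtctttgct
Cyp2a2: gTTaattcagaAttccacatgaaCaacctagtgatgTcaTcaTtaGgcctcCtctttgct
Both Cyp2a1 spots were well above background on no array, and the Cyp2a2 spot was on 7 of 8. No pair of distinct member probes shares a run longer than 12 bases. Probes were compared with each other and not with the transcripts of relatives, so binding across relatives was not tested.

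Fewer of the Cyp spots than of the array as a whole were well above background. A spot is called measured here if it was so on 4 or more of the 8 arrays, which held for 31 of 72 Cyp spots (43.1%, 26 genes), against 76.3% of all 15207. All 8 arrays passed for 22 spots of 17 genes, 1 to 3 arrays for 12 spots, and no array for 29 spots of 24 genes. The number per array ran from 28 to 34, with 28 to 33 on the controls and 28 to 34 on PNFLX, so the groups overlapped. A spot that is not well above background gives only an upper bound on its gene's level.

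Spots for enzymes of cholesterol, fatty acids, retinoic acid and vitamin D were measured more often than those grouped under foreign compounds. Enzymes of families 1 to 3 were grouped under foreign compounds by their family, unless placed in another role, and not by substrate. Among them Cyp2a1, Cyp2a2 and Cyp2c11 are steroid hydroxylases. Of the 33 spots of this group, 7 (21.2%) were measured and 20 were well above background on no array. Among the cholesterol and oxysterol enzymes 5 of 7 were measured, among those of fatty acids and eicosanoids 11 of 16. Among those of retinoic acid and vitamin D it was 4 of 6. For steroid hormone synthesis it was only 2 of 6 (33.3%), with 3 on no array, too few spots to set apart from foreign compounds. The cholesterol role and that of retinoic acid and vitamin D are nearly as small, and each count holds 1 sequence spotted at 2 places. By gene, 4 of 6 and 3 of 5 were measured there, against 8 of 11 for fatty acids and 7 of 30 for foreign compounds. For these small roles the shares are a description only. Of 4 spots for enzymes of little known substrate, Cyp20a1 and Cyp2s1 were measured and Cyp2w1 and Cyp4x1 were well above background on 1 array each.

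**Figure D1:**
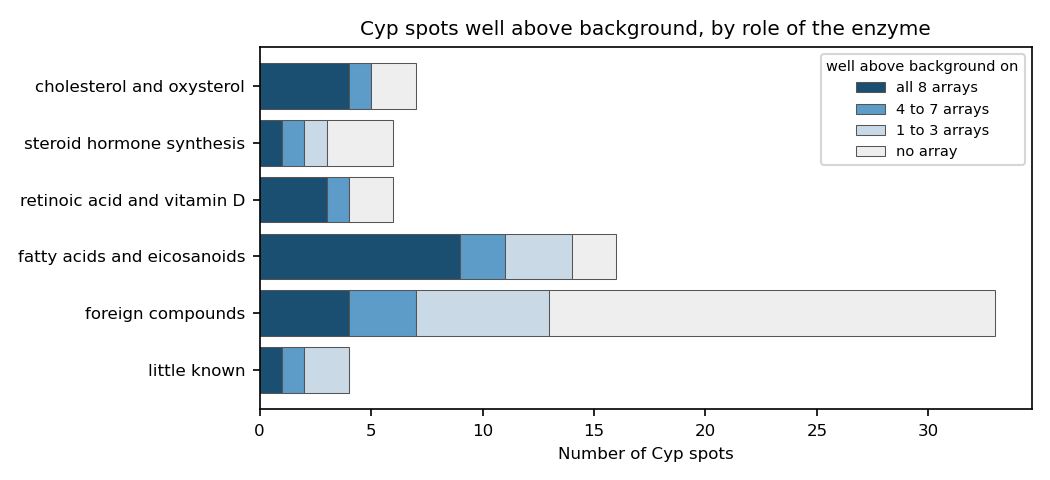
Number of Cyp spots by role of the enzyme (horizontal bars, in spots), shaded by the number of arrays, of 8, on which the spot was well above background. Spots on no array make up 20 of the 33 for enzymes of foreign compounds and 2 of the 16 for enzymes of fatty acids.

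By family, 1 of 3 spots of family 1, 11 of 34 of family 2, 1 of 4 of family 3 and 6 of 12 of family 4 were measured. All 4 spots of family 27 and both of family 26 were, as were the single spots of families 8, 17, 20 and 46, with 1 of 2 for family 7 and 1 of 3 for family 11. The single spots of families 19, 21, 24 and 39 were well above background on no array. These are Cyp19a1 (aromatase, which makes oestrogens), Cyp21a1 (steroid 21-hydroxylase), Cyp24a1 (which breaks down vitamin D) and Cyp39a1 (which hydroxylates 24-hydroxycholesterol). The same held for Cyp11a1, which makes pregnenolone from cholesterol, Cyp7a1, the rate-limiting enzyme of bile acid synthesis, Cyp2r1, a vitamin D 25-hydroxylase, and both Cyp1a genes. The other spots on no array were those of Cyp2a1 and Cyp2c23 and Cyp2c7 (both spots of each), Cyp2a3, Cyp2b15, Cyp2b21, Cyp2c12, Cyp2c13, Cyp2c22, Cyp2c55, Cyp2c65, Cyp2d2, Cyp2g1, Cyp3a2 and Cyp3a18, and 1 of the spots each of Cyp4a3 and Cyp4a8.

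Between PNFLX and control, 1 of the 31 measured Cyp spots passed the threshold, an adjusted p under 0.05 in limma over 11600 probes, where 0.672% of all probes did (78). That spot was Cyp2b2, higher in PNFLX. Of the 31, 14 were higher and 17 lower, with a median log2 difference (PNFLX minus control) of -0.04 against -0.03 over all probes tested. At an unadjusted p under 0.05 there were 8 Cyp spots, 4 higher and 4 lower, or 25.8% against 12.5% of all probes, and the groups did not overlap for 6, or 19.4% against 10.7%. The 8 include both spots of Cyp27b1, which carry 1 sequence, both of Cyp2j3, and Cyp26a1, which passed the filter mainly through the controls. The 6 also include both spots of Cyp27b1. With 1 probe per gene, 6 of 26 had an unadjusted limma p under 0.05. The differences of the 31 spots ran from -1.73 to 2.61, with a median size of 0.42 against 0.22, while the SD within groups had a median of 0.38 for the 31 and 0.31 for all.

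The scaling sets where 0 lies. Without scaling the median over all probes moved to 0.26 and that of the Cyp spots to 0.25, with 22 of 31 higher, and with normexp background correction they moved to -0.38 and -0.61, with 8 of 31 higher. Relative to the median of all probes, 15 of the 31 were higher with the 75th percentile scaling, 15 without scaling and 13 with normexp. Over all probes the 78 calls split into 43 higher and 35 lower, against 120 and 23 without scaling and 14 and 36 with normexp. The normexp setting starts from the scanner's mean brightness and local background, with an offset of 50. It thus also leaves out the scanner software's detrending, and these changes were not tested apart.

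**Figure D2:**
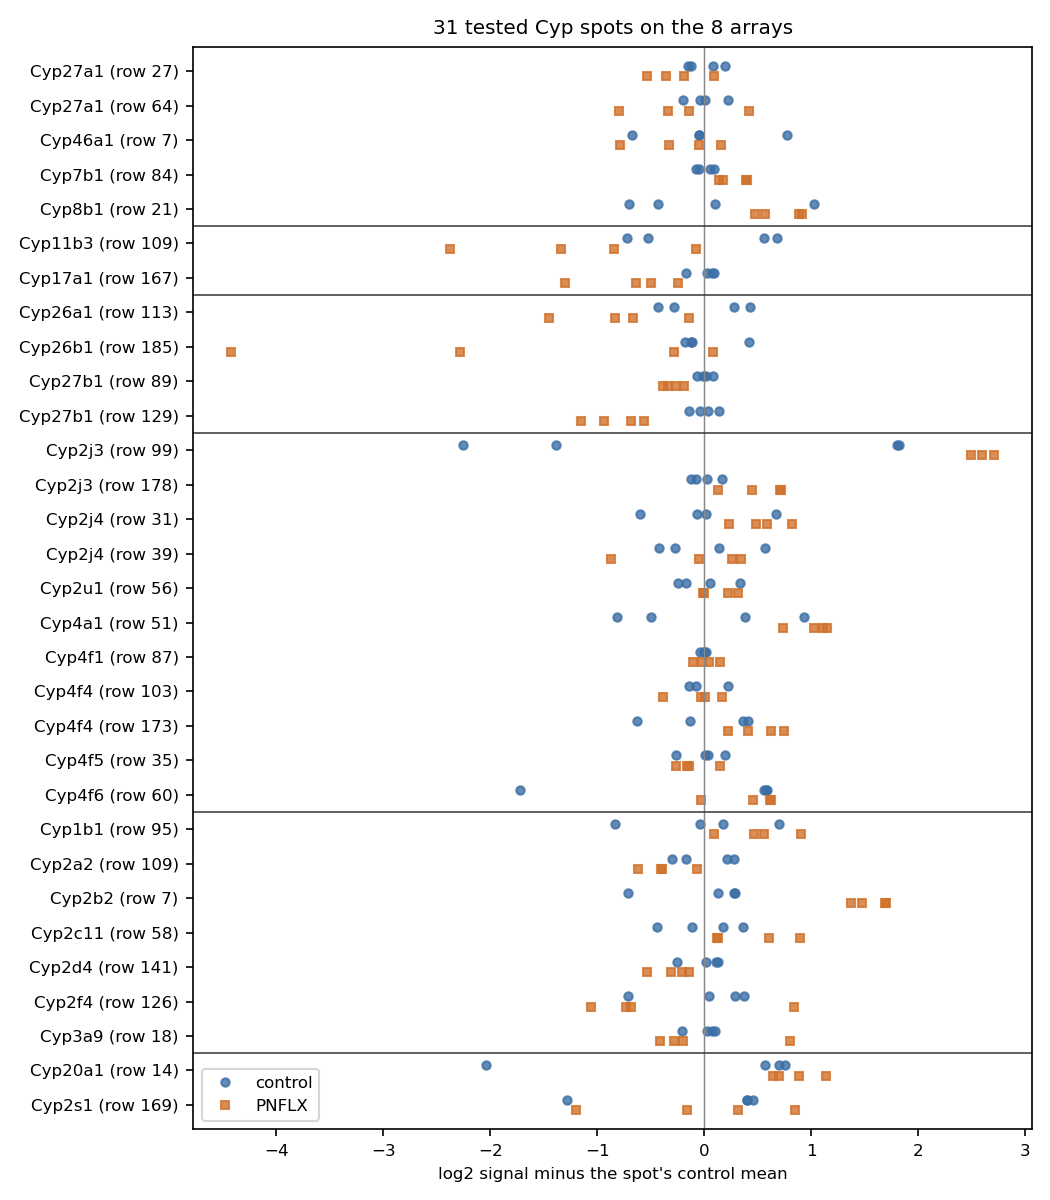
Log2 signal of the 31 measured Cyp spots on each array, minus the spot's control mean (horizontal axis, log2 units). Circles are the 4 controls, squares the 4 PNFLX arrays, and lines divide the roles, from cholesterol enzymes at the top to enzymes of little known substrate. For Cyp2b2 all 4 squares lie to the right of all circles. A single control lies far to the left for Cyp4f6 and for Cyp20a1, and controls 2 and 4 do for Cyp2j3 (row 99).

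Among the enzymes of foreign compounds Cyp2b2, a rat liver enzyme known for its induction by phenobarbital, was higher in PNFLX by 1.56 in log2 (SE 0.24), or 2.95-fold. Levels are given in log2 relative to the array's 75th percentile of signal, so a level of 0 is that percentile. Those of Cyp2b2 were -3.56, -3.71, -4.55 and -3.55 on controls 1 to 4 and -2.36, -2.15, -2.14 and -2.47 on PNFLX 1 to 4. Every PNFLX array lay above every control, and control 3 was the lowest. The group means were -3.84 ± 0.48 (SD, n = 4) and -2.28 ± 0.16 (SD, n = 4), with a limma adjusted p of 0.0316.

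The scanner's mean brightness of the Cyp2b2 spot, before background correction, detrending or scaling between arrays (the 75th percentile of processed signal was 654.4 to 880.2 on the controls and 873.2 to 941.4 on PNFLX), was 86, 93, 83 and 88 on the controls and 179, 274, 263 and 198 on PNFLX, so the groups were apart there too. Mean brightness was apart in the same direction for Cyp3a9 and Cyp4f5, whose scaled differences were -0.02 and -0.10. For Cyp4f1, with 0.02, it overlapped. The spot lies in row 7 of 192, and the probes within 2 rows of it had a median difference of 0.08. Differences in rows 6 to 20 were larger in size, with a median size of 0.35 against 0.2 more than 20 rows from either end. In limma 10 of 852 probes passed the threshold there, against 9 of 9310. An unadjusted limma p under 0.05 was found for 21.4% (76 higher, 106 lower), against 9.44%. The part of this wider spread in the Cyp2b2 difference was not tested. The Cyp2b2 call was lost with normexp background correction, which also leaves out the detrending and adds an offset (0.26, limma adjusted p = 0.795). It was also lost with each array's row and column medians subtracted (1.47, 0.0819), without a filter on dim probes (0.0563) and without the outer 5 rows (0.0954). The same held with the replicate block (0.174) and on leaving out any 1 array other than control 3 (1.52 to 1.66, adjusted p 0.0557 to 0.0955). Without control 3 the difference was 1.33 (0.026).

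Of the other 6 measured spots of that role 2 were higher and 4 lower, none past the threshold. Cyp2d4, the main CYP2D enzyme of rat brain, had log2 levels of -0.10, -0.01, 0.01 and -0.37 on the controls and -0.43, -0.65, -0.26 and -0.33 on PNFLX. Its groups overlapped through control 4, and the difference was -0.30 (SE 0.15, limma adjusted p = 0.454), and -0.00 without scaling. The spots of its relatives Cyp2d2, Cyp2d3 and Cyp2d5 were well above background on 0, 1 and 2 arrays.

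Cyp1b1, an extrahepatic enzyme found in vessel walls and connective tissue, had log2 levels of -5.06, -3.53, -4.27 and -4.05 on the controls and -3.32, -3.76, -3.67 and -4.14 on PNFLX. PNFLX 1, the highest, was also the array with the largest summed signal of meningeal and fibroblast markers; the part of those markers in the Cyp1b1 value was not tested. The difference was 0.51 (SE 0.32, limma adjusted p = 0.551) and 0.37 without PNFLX 1. With normexp it was -0.69.

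Cyp2c11, a male-specific steroid hydroxylase of rat liver, differed by 0.44 (SE 0.24), Cyp2a2 by -0.37 (SE 0.19), Cyp2f4, an enzyme best known from lung, by -0.41 (SE 0.43) and Cyp3a9 by -0.02 (SE 0.26). All 4 had overlapping groups and limma adjusted p of 0.455 to 0.981. Cyp3a9 was near-equal on 7 arrays, from -1.95 to -1.44, and at -0.74 on PNFLX 4.

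A fold bound above 1 could be given for 6 dim spots that stood above background in 1 group only. The spots were chosen by that flag and by a bound above 1, which sets their direction, so none is drawn. The bound for Cyp3a23-3a1, a major liver enzyme of drug clearance, was 2.17-fold lower in PNFLX in log2 means (well above background on 2 controls). For Cyp2b12 it was 1.48-fold lower (2 controls). The log2 levels of these spots did not overlap between the groups, but their unscaled mean brightness did, with PNFLX arrays brighter as a whole. This brightness was 62, 64, 86 and 56 on the controls and 53, 65, 75 and 52 on PNFLX for Cyp3a23-3a1. For Cyp2b12 it was 65, 75, 71 and 59 on the controls and 55, 49, 67 and 48 on PNFLX. The bound for Cyp2d5 was 1.23-fold higher (2 PNFLX arrays) and that for Cyp2b3 1.01-fold higher (2), and the groups overlapped for both. For Cyp2d5 control 4, at -6.01, lay above PNFLX 1 (-6.22) and PNFLX 4 (-8.08). For Cyp2b3 the highest array was control 2 (-4.50), above PNFLX 2 (-4.69). The bounds of Cyp11b2 and Cyp4b1 rest on PNFLX 3 alone, and no direction is drawn from them: Cyp4b1 was at -2.63 there, at -6.59, -6.55 and -6.09 on the other PNFLX arrays and at -5.86 to -5.37 on the controls, and Cyp11b2 was at -2.21 there, at -6.94, -6.38 and -7.70 on the others and at -7.79 to -5.87 on the controls. The spots of Cyp3a23-3a1 and Cyp2b3 lie in row 2, where differences of all probes ran high (rows 1 to 5 had a median of 0.75 over 267 probes). Cyp2e1, the ethanol-inducible enzyme, was well above background on 1 PNFLX array, with no bound above 1.

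All 4 measured spots of the enzymes of retinoic acid and vitamin D were lower in PNFLX, none past the threshold, with a median of -0.80 against -0.03 over all probes. Cyp26a1 among them counts as measured through the controls, where it is higher, so its sign is partly set by the filter and neither the count nor the median supports a direction. With quantile normalization, with normexp and with row and column medians subtracted all 4 were lower, and without scaling 3 were lower and 1, Cyp27b1 in row 89, was level (-0.00). They stand for 3 genes, since 2 of the spots carry the Cyp27b1 probe. Cyp27b1 makes the active form of vitamin D. At its spot in row 129 the log2 levels were -1.90, -2.08, -2.00 and -2.18 on the controls and -3.19, -2.72, -2.60 and -2.98 on PNFLX. At the spot in row 89 they were -2.29, -2.44, -2.38 and -2.35 on the controls and -2.71, -2.56, -2.75 and -2.63 on PNFLX.

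At both Cyp27b1 spots every PNFLX array lay below every control, but the size differed. It was -0.83 (SE 0.16, limma adjusted p = 0.0728) in row 129 and -0.30 (SE 0.11, adjusted p = 0.341) in row 89. Averaged over both spots it was -0.57 (adjusted p = 0.103), an alternative chosen after seeing the data.

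The unscaled mean brightness of the spots of Cyp27b1 overlapped between the groups, with 219, 243, 248 and 214 on the controls and 166, 223, 213 and 167 on PNFLX in row 129, and 216, 224, 209 and 184 against 211, 214, 195 and 214 in row 89. The PNFLX arrays were brighter as a whole, so this overlap is no test of a lower level. In row 129 the processed signal was 0.86, 0.86, 0.77 and 0.68 times the mean brightness on the controls and 0.61, 0.64, 0.68 and 0.71 times on PNFLX, while in row 89 this ratio was 0.67 to 0.72 on the controls and 0.66 to 0.74 on PNFLX. The ratio holds the scanner software's background and detrending steps. Its part in the difference was not tested.

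Cyp26b1, the main retinoic acid hydroxylase of brain, had log2 levels of 1.43, 1.49, 1.50 and 2.03 on the controls and 1.69, 1.33, -0.67 and -2.81 on PNFLX. PNFLX 1 and 2 lay at or near the controls and PNFLX 3 and 4 far below them, so the group means of 1.61 ± 0.28 and -0.11 ± 2.08 (SD, n = 4 each) describe no common level. The difference was -1.73 (SE 0.89, limma adjusted p = 0.475), and -0.83 without PNFLX 4.

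The mean brightness of the Cyp26b1 spot was 1016, 2241, 1887 and 1828 on the controls and 862, 1062, 340 and 123 on PNFLX. The processed signal was 1.87, 1.11, 1.15 and 1.46 times the mean brightness on the controls and 3.46, 2.23, 1.62 and 1.08 times on PNFLX, against medians of 0.63 to 0.70 over all probes. The spot lies in row 185, near the end of the array, and 15 and 14 measured spots within 3 rows and 3 columns of it deviated from their other 3 PNFLX arrays by a median of 1.07 on PNFLX 3 and -1.08 on PNFLX 4, against -2.00 and -4.14 for Cyp26b1 itself.

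Cyp26a1, its relative in embryo and liver, passed the background flag on 4 controls and 1 PNFLX array. Its log2 levels were -5.71, -5.86, -5.15 and -5.00 on the controls and -6.88, -6.26, -5.57 and -6.09 on PNFLX, with PNFLX 3 inside the control range. The difference was -0.77 (SE 0.31, limma adjusted p = 0.362).

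Both measured enzymes of steroid hormone synthesis had lower means in PNFLX, and neither passed the threshold. Cyp11b3 counts as measured through the controls, where it is higher, so its sign is partly set by the filter. Cyp17a1, the 17-alpha-hydroxylase of androgen synthesis, had log2 levels of -3.53, -3.79, -3.55 and -3.59 on the controls and -4.26, -4.12, -3.86 and -4.92 on PNFLX. The groups did not overlap, by the narrow gap between control 2 and PNFLX 3, and the difference was -0.67 (SE 0.22, limma adjusted p = 0.275), and -0.47 without PNFLX 4. Unscaled mean brightness overlapped, with 104 to 129 on the controls and 75 to 113 on the PNFLX arrays, which were brighter as a whole.

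Cyp11b3, a rat relative of the adrenal 11-beta-hydroxylase, passed the background flag on 4 controls and 2 PNFLX arrays. Its log2 levels were -5.59, -5.39, -4.31 and -4.19 on the controls and -7.25, -6.21, -4.95 and -5.71 on PNFLX. PNFLX 3 lay within the control range, and the difference was -1.16 (SE 0.52, limma adjusted p = 0.416).

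None of the 5 measured spots of cholesterol and oxysterol enzymes passed the threshold or an unadjusted p of 0.05, and 2 were higher and 3 lower. Cyp8b1, one of the higher, counts as measured mainly through PNFLX, so its sign is partly set by the filter. Cyp7b1 had log2 levels of -1.38, -1.49, -1.52 and -1.35 on the controls and -1.30, -1.26, -1.05 and -1.04 on PNFLX. All PNFLX arrays lay above all controls, by a gap smaller than the spread of either group. The unscaled mean brightness was 369 to 441 on the controls and 479 to 580 on PNFLX, arrays that were brighter as a whole. The difference was 0.27 (SE 0.13, limma adjusted p = 0.426), and -0.12 with normexp.

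Cyp46a1 had log2 levels of -3.57, -2.12, -2.95 and -2.95 on the controls and -3.23, -2.95, -2.74 and -3.69 on PNFLX. The groups overlapped widely, and the difference of -0.25 (SE 0.32, limma adjusted p = 0.771) became 0.01 without control 2, the highest array. The 2 spots of Cyp27a1, the sterol 27-hydroxylase of mitochondria, carry 1 sequence and gave -0.25 (SE 0.17) in row 27 and -0.21 (SE 0.25) in row 64, each turned above 0 without scaling (0.05 and 0.08). Cyp8b1, a 12-alpha-hydroxylase of bile acid synthesis in liver, passed the background flag on 1 control and 3 PNFLX arrays, and its groups overlapped with a difference of 0.72 (SE 0.35, limma adjusted p = 0.454), and -0.83 with normexp.

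The 11 measured spots of fatty acid and eicosanoid enzymes had a median of 0.42, with 8 higher, 3 lower and none past the threshold. With normexp the split was 5 higher and 6 lower, and without scaling all 11 were higher. Cyp2j3, an epoxygenase of arachidonic acid, has 2 different probes. In row 99 its log2 levels were 0.06, -4.01, 0.04 and -3.14 on the controls and 0.74, 0.95 and 0.84 on PNFLX 1 to 3, with the PNFLX 4 spot left out for its outlier flag. The groups did not overlap, but controls 2 and 4 lay far below the other controls.

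The difference at that Cyp2j3 spot was 2.61 (SE 1.05, limma adjusted p = 0.371) over 4 controls and 3 PNFLX arrays, and 1.86 without control 2. Mean brightness was 780, 94, 711 and 87 on the controls and 1151, 1329, 1540 and 367 on PNFLX, so the PNFLX 4 spot that was left out lay between the higher and the lower controls. The 18 measured spots within 3 rows and 3 columns deviated by a median of -1.01 on control 2 and 0.22 on control 4, against -4.05 and -3.19 for Cyp2j3. In row 178 the other Cyp2j3 probe gave -3.71, -3.42, -3.56 and -3.67 on the controls and -2.88, -3.14, -2.87 and -3.46 on PNFLX. There controls 2 and 4 were level with the other controls, the groups overlapped through PNFLX 4 and control 2, and the difference was 0.50 (SE 0.17, limma adjusted p = 0.277), and -0.76 with normexp.

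Cyp4a1, a fatty acid omega-hydroxylase known as a target of the receptor PPAR-alpha in liver, had log2 levels of -5.16, -6.04, -6.35 and -4.61 on the controls and -4.80, -4.39, -4.43 and -4.51 on PNFLX. The PNFLX arrays lay close together, control 4 within reach of them, and the other controls lower. The difference was 1.01 (SE 0.36, limma adjusted p = 0.313), and -0.66 with normexp.

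Cyp4f1, Cyp4f4, Cyp4f5 and Cyp4f6 belong to the family that inactivates leukotriene B4. Cyp4f1 varied little and had 0.39 ± 0.03 on the controls and 0.41 ± 0.10 on PNFLX (SD, n = 4 each), a difference of 0.02 (SE 0.11). Cyp4f5 differed by -0.10 (SE 0.15), and by 0.20 without scaling. Cyp4f6 stood at 1.60, 1.57 and 1.59 on controls 1, 2 and 4 and at -0.71 on control 3, and at 1.47, 1.63, 1.64 and 0.98 on PNFLX. Control 3 alone sets its difference of 0.42 (SE 0.51, limma adjusted p = 0.758), which was -0.15 without that array. On control 3, 37 measured spots within 3 rows and 3 columns deviated by a median of -0.11. Cyp2u1, a hydroxylase of long-chain fatty acids in brain and thymus, differed by 0.13 (SE 0.17).

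Of the enzymes of little known substrate, Cyp20a1 had -0.44, -0.57 and -0.38 on controls 2 to 4, -3.18 on control 1 and -0.25, -0.44, -0.50 and 0.00 on PNFLX. The difference was 0.85 (SE 0.59, limma adjusted p = 0.585), and 0.17 without control 1, where 36 spots around it deviated by a median of -1.21. Cyp2s1, which acts on lipids and retinoids in epithelia, had -3.67, -3.61, -3.67 and -5.35 on the controls and -4.23, -3.75, -3.22 and -5.27 on PNFLX, with both replicates numbered 4 at the low end. The difference was -0.04 (SE 0.53, limma adjusted p = 0.980).

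For 4 member probes both spots of a pair with 1 sequence were measured. For Cyp27b1 and Cyp27a1 the spots gave the same sign, and for Cyp2j4 (0.53 in row 31 and -0.08 in row 39) and Cyp4f4 (-0.06 in row 103 and 0.50 in row 173) opposite signs. Cyp2j4 is an arachidonic acid epoxygenase of gut and liver, and no spot of Cyp2j4 or Cyp4f4 passed the threshold. The gap between the differences had a median of 0.54 over these 4 pairs and 0.22 over the 1488 same-sequence pairs of the array, of which 63.0% had 1 sign; the 90th percentile of that gap was 0.94. Cyp2b2, Cyp17a1, Cyp7b1 and Cyp2d4 have 1 spot each, so no such comparison could be made for them.

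**Figure D3:**
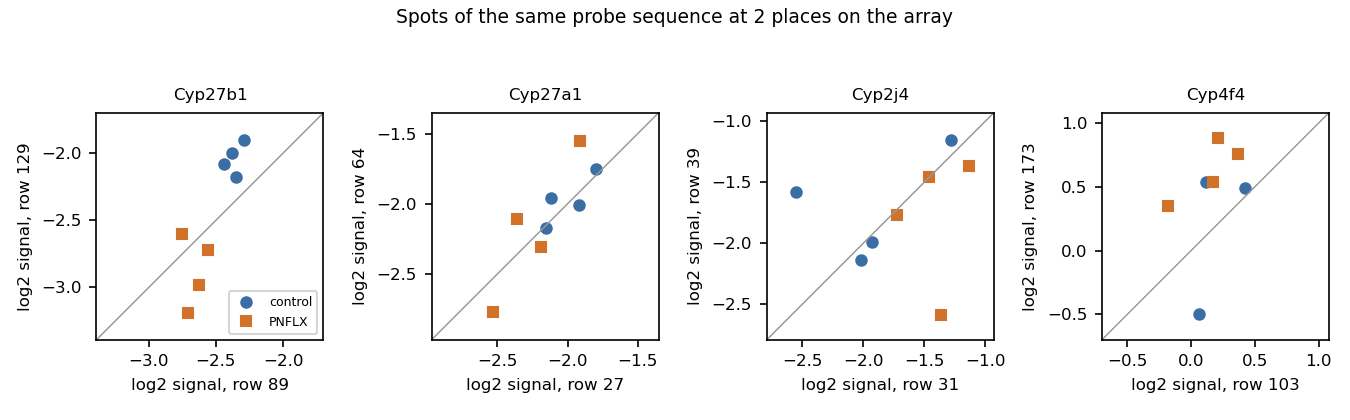
Log2 signal of the same probe at 2 places on the array, 1 panel per gene, with the first row on the horizontal axis, the second on the vertical and the line of equality. Circles are controls and squares PNFLX arrays (for Cyp4f4, control 1 is left out for an outlier flag in row 103); for Cyp27b1 the 2 groups lie apart on both axes, with more distance on the vertical.

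Position on the array was looked at for all 31. None lay in the outer 5 rows, where medians over all probes were 0.75 (rows 1 to 5) and -0.79 (rows 188 to 192). More than 20 rows from either end lay 24 of the 31, none past the threshold in limma, where 9 of the 9310 probes of those rows passed, and 6 had an unadjusted p under 0.05 against 9.44% of all probes there. After row and column medians were subtracted, the largest differences among members with a full set of arrays were -1.85 for Cyp26b1 and 1.47 for Cyp2b2, and Cyp27b1 in row 129 gave -0.65 and Cyp17a1 -0.75.

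**Figure D4:**
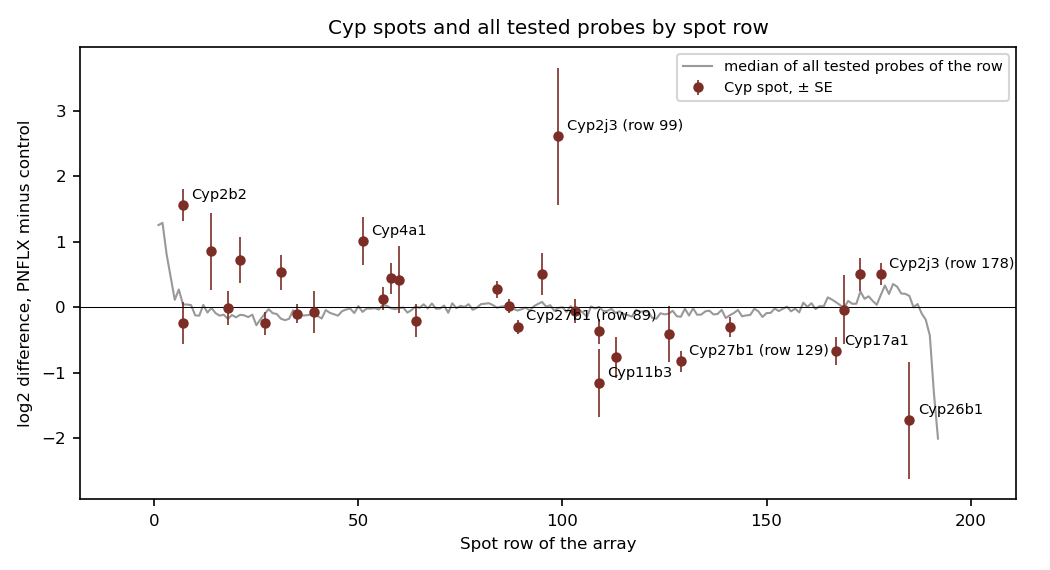
Log2 difference, PNFLX minus control, of the 31 measured Cyp spots (points, with SE as bars) against the spot row of the array, with the median of all tested probes of each row (grey line). The line turns up in the first 5 rows and down in the last 5, where no measured Cyp spot lies; Cyp2b2 in row 7 stands above it and Cyp27b1 in row 129 below it.

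The genes that serve or neighbour the P450 enzymes were read from lists of redox partners, regulators, haem enzymes, other steroid enzymes, arachidonic acid enzymes and conjugating enzymes. Of their 121 measured probes 61 were higher and 60 lower, with a median of 0.02, and 1 passed the threshold, against 0.672% of all probes. That probe was Hsd3b2, which makes progesterone from pregnenolone and was lower by 0.76 in log2 (-0.76, SE 0.13, limma adjusted p = 0.0448). Its means were -3.94 ± 0.08 and -4.70 ± 0.15 (SD, n = 4 each). The call was lost with row and column medians subtracted (-0.63, adjusted p = 0.119), without the outer 5 rows (0.126) and with the replicate block (0.203).

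Among 16 probes of redox partners 8 were higher and 8 lower, none past the threshold or an unadjusted p of 0.05. Por gave -0.00 (SE 0.38), Cyb5a 0.31 (SE 0.17), which was -0.02 after row and column medians were subtracted, Fdx1 -0.11 and -0.57 on 2 probes, and Fdxr 0.03 and -0.21. Of 16 haem probes 6 were higher and 10 lower; Urod gave -0.49 (SE 0.14, limma adjusted p = 0.210). Of 22 regulator probes 14 were higher and 8 lower. The liver X receptor Nr1h3 gave 1.15 (SE 0.27, limma adjusted p = 0.128) in row 3, which was 0.38 after row and column medians were subtracted, and 0.04 (SE 0.14) at a spot of the same sequence in row 87. Hnf4a gave 0.95 (SE 0.30, limma adjusted p = 0.247) on a probe measured on 5 arrays and -0.66 (SE 0.31, adjusted p = 0.439) on another measured on 8, and Nr0b1 -0.48 (adjusted p = 0.247).

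Of 23 probes of other steroid enzymes 15 were higher and 8 lower; Star, the cholesterol carrier of steroid-making mitochondria, gave -0.39 (SE 0.40) and Hsd11b2, which inactivates corticosterone, -0.45 (SE 0.15, limma adjusted p = 0.275). Of 12 probes of arachidonic acid enzymes 5 were higher and 7 lower. Pla2g4a, the phospholipase that frees arachidonic acid, gave 0.92 (SE 0.18, limma adjusted p = 0.0771) in row 183. Ptgs2, a cyclooxygenase, gave 0.91 (SE 0.27, limma adjusted p = 0.225) in row 6. Both rows lie near an end of the array. After row and column medians were subtracted Pla2g4a gave 0.67 (limma adjusted p = 0.34) and Ptgs2 0.72 (0.289). Of 32 conjugation probes 13 were higher and 19 lower, with Fmo2 at 0.91 (SE 0.38) and Gstm3 at -0.54 (SE 0.16), neither past the threshold.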

How the data were processed

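Arrays were scanned with 1 dye (Cy3), per the labels' protocols. For each spot, the deposited intensity values (a processed signal, a mean brightness and a local background) and flags come from Agilent Feature Extraction with spatial and multiplicative detrending, per the file headers. The authors also deposited log2 values; these matched the scanner's processed signal in log2, less the 75th percentile per array and the median per probe, within 0.00241, with column medians of 0.06, -0.05, 0.04 and 0.04 (controls) and -0.04, -0.07, 0.10 and -0.13 (PNFLX).

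Values here are processed signals in log2, less the 75th percentile of the array (654.4 to 941.4 before log2) over 15207 probes. Over the arrays 521 spots with outlier flags were left out, among them Cyp2j3 (row 99) on PNFLX 4 and Cyp4f4 (row 103) on control 1. The flag for signal well above background held for 70.5% to 77.9% of spots per array, and the 11600 probes that had it on 4 or more arrays were fitted with limma 3.58.1 in R 4.3.3 (group as the only term, empirical Bayes, Benjamini-Hochberg adjustment, threshold 0.05). SE is the moderated standard error. The number of arrays, 4 per group, limits the precision. Symbols were looked up in RefSeq's gene table (GRCr8), with no coordinates taken from it; 14152 probes matched. For dim spots, a bound divides the brighter group's mean by that of the dim group, where each dim array counts at its own signal or at the lowest signal that passed the flag, whichever is higher.

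The members, the gene and marker lists, and the rule for named genes were chosen with earlier results of these data known. That rule gave array values for spots past the threshold, for the 10 of smallest p and for measured spots of preset brain P450 genes, and for other lists Por, Cyb5a, Fdx1, Fdxr, Star and up to 3 of smallest p. Alternatives covered scaling, background correction, filters, flags, 1 probe per gene, spot position, the deposited table, robust empirical Bayes, a replicate block and leaving out each array. For normexp, mean brightness and local background were used in place of the processed signal, with an offset of 50. The fit was tested on simulated data.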

Additional observations from a re-analysis of the deposited data

Results flagged for a closer look

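Each group of 4 arrays was tested for a single array far from the other 3 (Dixon's test at the 95% level), over the 60 groups of the 31 measured Cyp spots that have 4 values (2 groups have 3); chance alone gives such a mark in about 1 in 20 groups, and 5 groups had one. All 5 were control groups. Cyp26b1 stood at 2.03 on control 4, against 1.43 to 1.50 on the other controls, and Cyp4f6 at -0.71 on control 3, against 1.57 to 1.60. Cyp2s1 stood at -5.35 on control 4 (the others -3.67 to -3.61), Cyp2b2 at -4.55 on control 3 (the others -3.71 to -3.55) and Cyp20a1 at -3.18 on control 1 (the others -0.57 to -0.38). Around these spots, measured spots within 3 rows and 3 columns deviated on the same array by a median of 0.42 for Cyp26b1, -0.11 for Cyp4f6, -1.73 for Cyp2s1, -0.27 for Cyp2b2 and -1.21 for Cyp20a1, against 0.53, -2.29, -1.68, -0.99 and -2.73 for the spots themselves.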

How the results depend on the processing

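The count of 1 Cyp spot past the threshold (Cyp2b2) became 0 with normexp, without the filter, with row and column medians subtracted, without the outer 5 rows, in the inner rows alone (more than 20 rows from either end, which leaves Cyp2b2 out) and with the replicate block, and ranged from 0 to 1 when single arrays were left out. It was 1 under the other settings, including the deposited table. The 8 spots at an unadjusted p under 0.05 became 3 with normexp and 6 to 11 otherwise. The 1 call among the neighbouring genes (Hsd3b2) became 0 with row and column medians subtracted, without the outer rows and with the replicate block. Well above background were 43 Cyp spots on at least 1 array, 31 on at least 4 and 22 on all 8. Calls over all probes ranged from 0 (without the outer 5 rows, and in the inner rows) to 143 (no scaling), against 78. They were 30 with row and column medians subtracted, 13 with the replicate block, 46 without the filter and 50 with normexp. The causes were not tested. Deviations of same-numbered samples had correlations of 0.00813, 0.0843, 0.0921 and 0.0222, all under 0.1, so the samples were not taken as paired, although controls 2, 3 and 4 correlated best with the PNFLX sample of their own number (3 of 4), a hint from the data and not from the design; under the replicate block Cyp2b2 had an adjusted p of 0.174.

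Over 724 single-gene values 671 kept sign and side of the threshold, 15 lost the call and 38 changed sign, none of them of a called value. Without scaling these were Cyp4f4 (row 103, 0.21), Cyp2j4 (row 39, 0.22), Cyp27a1 (0.05 and 0.08), Cyp3a9 (0.28), Cyp2s1 (0.25), Cyp4f5 (0.20) and Cyp46a1 (0.05). With normexp they were Cyp3a9 (0.01), Cyp4a1 (-0.66), Cyp2u1 (-0.88), Cyp7b1 (-0.12), Cyp2j3 (row 178, -0.76), Cyp1b1 (-0.69), Cyp2c11 (-0.80) and Cyp8b1 (-0.83). With row and column medians subtracted they were Cyp4f4 (0.22), Cyp2j4 (0.04), Cyp3a9 (0.21), Fdx1 (row 45, 0.01) and Cyb5a (-0.02), and with same-sequence spots averaged Cyp4f4 (0.25). On leaving out 1 array the sign changed for some arrays, over ranges of -0.29 to 0.11 for Cyp3a9, -0.47 to 0.34 for Cyp2s1, -0.22 to 0.18 for Cyp2j4 (row 39), -0.13 to 0.06 for Cyp4f4 (row 103), -0.48 to 0.01 for Cyp46a1, -0.15 to 0.61 for Cyp4f6 and -0.02 to 0.06 for Cyp4f1.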
